A study of Bos taurus with 28 samples.

Results

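Extracellular vesicles (EVs) of milk are membrane-bound particles that carry short regulatory RNAs, and miRNAs are the RNAs of this kind that pair with messenger RNAs and lower their translation or stability. Milk EV miRNAs come largely from the secretory epithelium of the udder, with a contribution from the other cells of milk. The somatic cell count (SCC) of milk counts those cells, most of which are leukocytes once it rises, and a raised SCC is the usual sign of inflammation of the gland.

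The comparison concerned the milkings of Cow 1 and Cow 2 on Day 3, when both cows had an SCC above 100’000 cells/mL without clinical illness. All 4 such libraries were taken as the raised group and the other 10 libraries of the same 2 cows, all below 100’000 cells/mL, as the reference, so that 14 of the 28 libraries of the series entered. The animals were dairy cows that tested negative for mastitis at inclusion, and each library is the small RNA of EVs from 1 milking, in the morning or the evening, on 1 of 4 consecutive days. Cow 1 contributed Days 1, 3 and 4 and Cow 2 Days 1, 2, 3 and 4. Cow 4 was used as a check of the day, with 2 libraries of Day 3 and 6 of Days 1, 2 and 4, all at an SCC below 100’000 cells/mL. Each cow was milked repeatedly and is 1 animal, so p-values measure the spread between milkings and not between animals. Each raised library is from Day 3, and raised SCC and day cannot be told apart within Cow 1 and Cow 2.

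In Cow 1 the SCC was 297’000 cells/mL in the morning and 190’000 cells/mL in the evening of Day 3. In Cow 2 it was 163’000 cells/mL in the morning and 300’000 cells/mL in the evening. The reference milkings lay between 36’000 and 89’000 cells/mL, and both Day 3 milkings of Cow 4 were low, at 45’000 and 47’000 cells/mL. The smallest raised SCC was thus above the largest reference SCC, and the higher value fell in the morning in Cow 1 and in the evening in Cow 2.

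Values are log2 CPM, read counts scaled to a common library size and put on the log2 scale, and all percentages of miRNAs refer to the whole deposited table. Reads of the miRNAs of this table, which are only a part of all reads of a library, numbered 138703 to 202501 per library in the raised group. In the reference they numbered 101968 to 254454, and 114 miRNAs of the table had reads in all 14. Shares of reads refer to these miRNA reads. The make-up of the libraries moved with the group. The 10 most abundant miRNAs of a library took 71.2% to 74.5% of its reads in the raised group and 65.9% to 73.7% in the reference, and the authors' scaling factors ran from 0.793 to 0.964 and from 0.896 to 1.29. The scaling factor and the top 10 share were therefore each tried as a covariate. In each of these fits 6 miRNAs passed, of which 4 and 5, respectively, were among those that passed with cow alone. Among the 10 most abundant miRNAs were let-7a-5p, let-7b and let-7c of the let-7 family, which holds back proliferation genes, miR-200c, a miRNA of epithelia, and miR-148a, which is abundant in milk of many mammals. All of them are well known from milk EVs. Leukocyte-defining miR-223, miR-142, miR-150 and miR-146a and the red blood cell miRNAs miR-451, miR-144 and miR-486 were looked for by name. None of them was among the miRNAs with values here, so they could not be compared.

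With cow as a covariate, 17 miRNAs (12.9%) passed a false discovery rate (FDR) of 0.05 in limma between raised and reference libraries. Of these, 8 were higher (6.06%) and 9 were lower (6.82%) in the raised group. The lower miRNAs were miR-2285bf, miR-3600, miR-29b, miR-141, miR-374a, miR-16a, miR-24-3p, miR-29a and miR-30b-5p. The higher ones were miR-320a, miR-3596, miR-8549, let-7c, miR-92b, miR-25, miR-2890 and miR-92a. None of the 6 miRNAs of the immune and inflammation list was among them, which is near the share of 12.9% over all miRNAs. Without adjustment, p was below 0.05 for 27 miRNAs (20.5%). When the morning and evening libraries of the same cow and day were treated as a pair, a replicate block in the fit, 5 miRNAs passed (3.79%), and all 5 of them were lower. These were miR-2285bf, miR-3600, miR-29b, miR-141 and miR-374a.

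**Figure D1:**
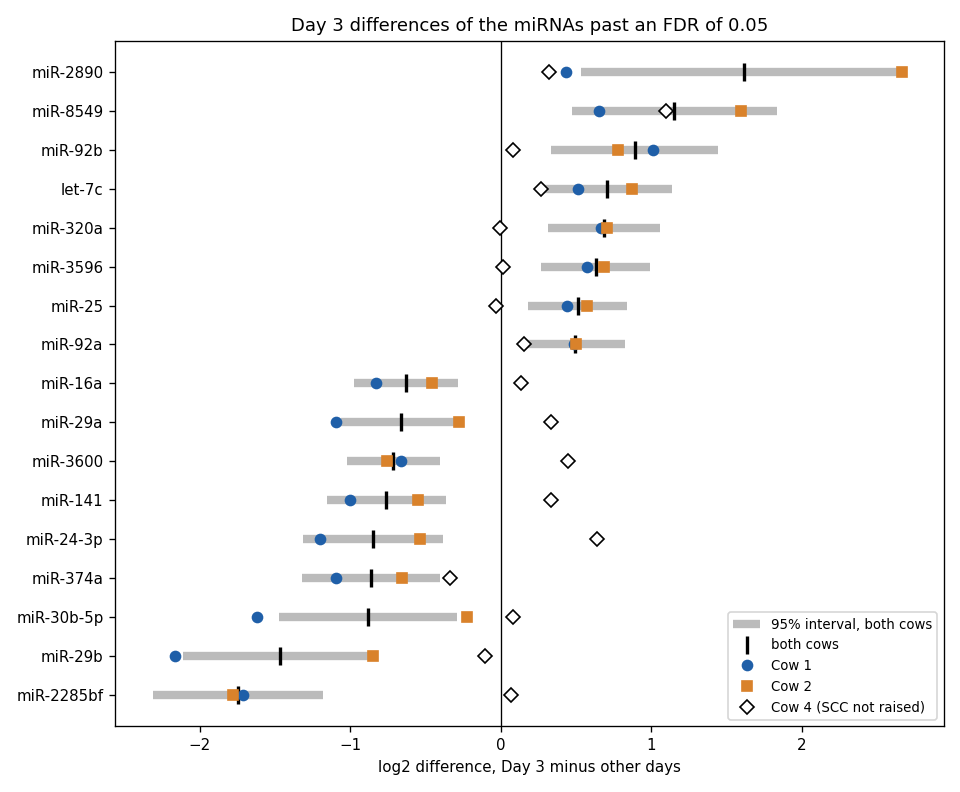
Log2 difference of Day 3 minus other days (horizontal axis) for the 17 miRNAs that passed an FDR of 0.05, with both cows together (tick) and its 95% interval (grey bar), and in Cow 1 (circles), Cow 2 (squares) and Cow 4 (diamonds). Cow 1 and Cow 2 lie on the same side of 0 for all 17, which is favoured because the 17 were chosen by the effect over both cows. In Cow 4, where 87 miRNAs of the whole table were positive, 7 of the 9 lower and 6 of the 8 higher miRNAs lie above 0.

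The largest drop among the miRNAs that passed was that of miR-2285bf, a member of a large miRNA family of ruminants. In Cow 1 its level was 6.89 log2 CPM in the morning and 5.85 in the evening of Day 3, against 7.76, 8.02, 8.88 and 7.67 in the other milkings. Cow 2 had 7.06 and 6.10 on Day 3, and its 6 reference libraries ran from 7.92 to 8.61 with a median of 8.39. All 4 raised libraries were thus below all 10 reference libraries. The log2 difference was -1.75 (SE 0.27, limma adjusted p = 0.00056), a level 3.36-fold lower (95% interval 2.27 to 4.97), and it was -1.71 in Cow 1 and -1.78 in Cow 2. The miRNA had 46 reads in the raised libraries together and 605 in the reference libraries, so that its precision rests on few reads. With the day as a replicate block the adjusted p was 0.0030. It passed with each of the 14 libraries left out in turn, with a log2 difference between -1.94 and -1.55. Of 33 alternatives it missed the threshold in 1, the fit without Cow 2 (-1.71, adjusted p = 0.0721).

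A second drop was that of miR-3600, a miRNA numbered in cattle whose gene overlaps that of miR-22 in the RefSeq annotation, so that its level may depend on how reads were assigned. Cow 1 had 10.52 and 10.65 log2 CPM on Day 3 and 10.90, 11.23, 11.20 and 11.68 in the other milkings. In Cow 2 the level was 10.41 and 10.61 on Day 3, and 11.09 to 11.52 with a median of 11.23 on the other days. As for miR-2285bf, no raised library reached the lowest reference library. The log2 difference was -0.71 (SE 0.15, limma adjusted p = 0.0064), or 1.64-fold, with 869 reads in the raised group and 4804 in the reference. It passed with the block (adjusted p = 0.0160) and with each library left out, but not with the scaling factor as a covariate, where the log2 difference was -0.67 (adjusted p = 0.0565). In all it passed in 28 of 33 alternatives, with an adjusted p of up to 0.169.

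**Figure D2:**
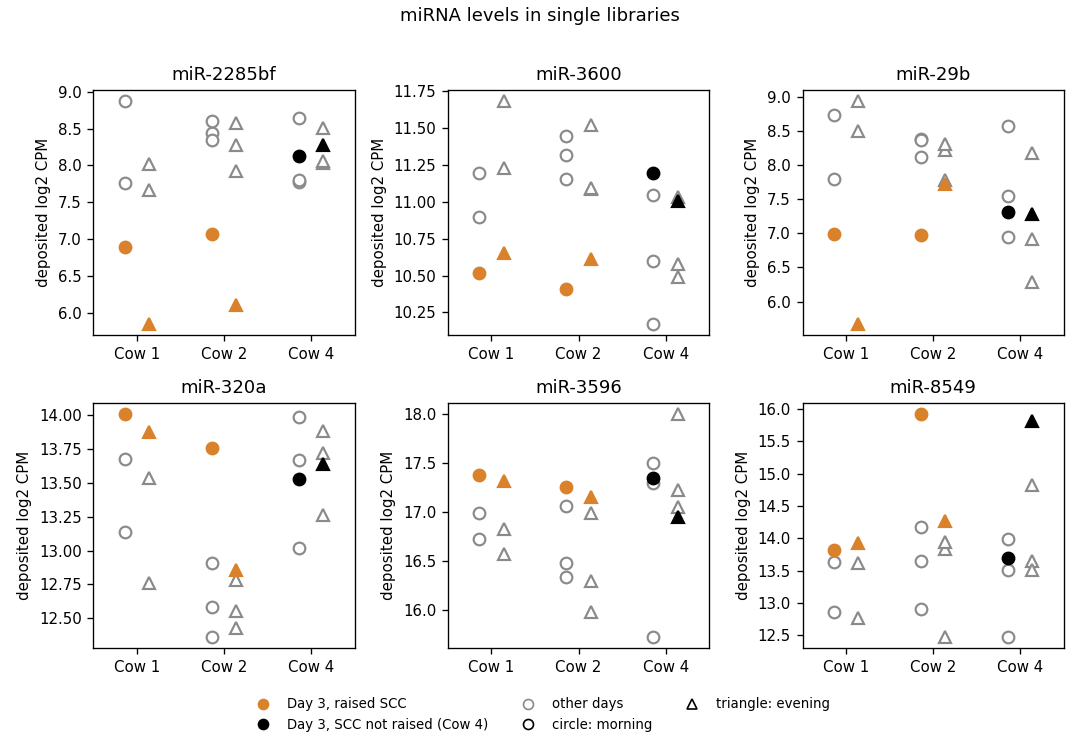
Deposited log2 CPM (vertical axis, own range in each panel) of the 3 lower and 3 higher miRNAs with the smallest p, for single libraries of Cow 1, Cow 2 and Cow 4. Filled symbols are Day 3 (orange with a raised SCC, black in Cow 4), open symbols other days, circles morning and triangles evening; for miR-2285bf the raised libraries reach 7.06 at most and the reference libraries start at 7.67.

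The miR-29 family represses collagens and other genes of the extracellular matrix, as known from human and mouse. miR-29b was 6.99 and 5.67 log2 CPM on Day 3 of Cow 1 and 7.80, 8.51, 8.74 and 8.94 in its other milkings. In Cow 2 it was 6.98 and 7.72 on Day 3 and 7.78 to 8.39 (median 8.27) on the other days. Its raised and reference libraries did not overlap in either cow, but the evening of Cow 2 stood just below the lowest reference value. The log2 difference was -1.47 (SE 0.31, limma adjusted p = 0.0064; 70 and 621 reads), and the adjusted p was 0.0160 with the block.

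For miR-29a the levels of Day 3 were 9.53 and 9.28 in Cow 1, below its reference range of 10.38 to 10.63. In Cow 2 they were 10.32 and 9.93, and the reference ran from 10.12 to 10.99, so that the groups overlapped there. The log2 difference was -0.67 (SE 0.19, limma adjusted p = 0.028), and it missed the threshold with the block (adjusted p = 0.0527). Its drop was smallest without the evening of Day 3 of Cow 1, at -0.52. The third member, miR-29c, did not pass (log2 difference -0.59, 95% interval -1.22 to 0.04). The list of 3 had a median of -0.67, against 0.04 over all miRNAs. Of its members 2 passed, beside 12.9% of all miRNAs, and this count was not tested. All 3 values were negative with equal library medians, with quantile normalization and with the scaling factor as a covariate, but no member passed in the last of these and only miR-29b passed with quantile normalization. Together the 3 miRNAs took 0.0581% to 0.153% of the reads in raised libraries and 0.137% to 0.342% in reference libraries.

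Of the 6 epithelial miRNAs 1 passed, which is near the share of 12.9% over all miRNAs, and it was lower. miR-141, which with the miR-200 miRNAs represses the transcription factors ZEB1 and ZEB2, fell by 0.76 on the log2 scale (SE 0.19, limma adjusted p = 0.0205; with the block 0.0487). It was 9.51 and 9.72 log2 CPM on Day 3 of Cow 1, against 10.72, 10.67, 10.74 and 10.35 on other days. In Cow 2 its Day 3 levels were 10.30 and 10.53, and the reference of 10.48 to 11.59 (median 10.82) overlapped with the second of these. Its call was lost without the morning or without the evening library of Day 3 of Cow 1 (adjusted p up to 0.0658). No other member of the 6 passed. miR-200c, whose gene lies within 10000 bases of that of miR-141, was at 0.16 (95% interval -0.07 to 0.40) and miR-200a at -0.34 (-0.63 to -0.06, adjusted p = 0.12), while miR-429 was at -0.14 and miR-375, a miRNA of secretory epithelia, at 0.39 (adjusted p = 0.058). The median of the list was -0.03, with 3 positive and 3 negative members, and its summed share of reads was 6.92% to 8.65% in raised and 6.47% to 10.4% in reference libraries.

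Pairs of neighbouring miRNA genes were also set side by side by their log2 ratio. The rule for these pairs, RefSeq genes whose starts lie within 10000 bases, was added after the data were seen, and their ratios are given as a description. It gave 42 pairs, of which 16 had an exact two-sided permutation p below 0.05 and 0 after adjustment over the pairs (smallest adjusted exact p = 0.0667). The 4 pairs given here were picked for their large changes. Each holds a miRNA that passed in the same libraries, so its changed ratio is no separate evidence. For other pairs the change over both cows was near 0, such as miR-182 over miR-183 (0.04) and miR-191 over miR-425-5p (-0.01). The log2 ratio of miR-141 to miR-200c was lower by 0.93 in the raised group, with a change of -1.13 in Cow 1 and -0.74 in Cow 2. For miR-23a over miR-24-3p it was higher by 0.81 (1.12 and 0.50 in the 2 cows). The ratio of miR-30b-5p to miR-30d changed by -1.07 over both cows, but by -1.94 in Cow 1 and only -0.21 in Cow 2. In the cluster of miR-20a and miR-92a the change was -1.15, with miR-20a at 13 reads in the raised group. Several mature miRNAs of these pairs are made from more than 1 gene, among them miR-24-3p, miR-29b and miR-92a, and their reads cannot be assigned to 1 of them.

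Of the remaining lower miRNAs, miR-374a was 7.63 and 8.02 log2 CPM on Day 3 of Cow 1 (reference 8.55 to 9.11) and 8.15 in both Day 3 milkings of Cow 2 (reference 8.04 to 9.16). Its log2 difference was -0.86 (limma adjusted p = 0.0205; with the block 0.0487). miR-16a, a miRNA of the miR-15/16 family that restrains the cell cycle, was 9.18 and 9.06 in Cow 1 (reference 9.72 to 10.34) and 9.58 and 9.88 in Cow 2 (reference 9.995 to 10.58). The groups did not overlap in either cow for miR-16a, and its log2 difference was -0.63 (adjusted p = 0.0205; with the block 0.0510). miR-24-3p, from the clusters it shares with miR-23 and miR-27, was 9.51 and 9.13 in Cow 1 (reference 10.26 to 11.10) and 9.56 and 9.98 in Cow 2 (reference 9.79 to 10.78). Its log2 difference was -0.85 (adjusted p = 0.0205; with the block 0.0510). miR-30b-5p was 7.92 and 7.99 in Cow 1, more than 1 log2 unit below its reference of 9.34 to 9.82, but 7.997 and 8.66 in Cow 2, inside the reference of 7.73 to 9.13. This miRNA had the weakest call of the 9 (-0.88, adjusted p = 0.047; with the block 0.083) and passed in only 3 of the 14 fits with a library left out.

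Of the 8 higher miRNAs, 6 were among the 50 most abundant miRNAs, against 2 of the 9 lower ones. These counts were not tested against the share that the 50 make up of all miRNAs. They also depend on the cut, since the lower miR-29a, miR-24-3p and miR-16a ranked just past it, at 54, 56 and 57. The make-up of the libraries also moved with the group, and a link between abundance and direction was not tested. miR-320a, whose precursor skips part of the usual processing in mammals, was 14.01 and 13.88 log2 CPM on Day 3 of Cow 1 and 13.68, 13.54, 13.14 and 12.76 on other days. In Cow 2 it was 13.76 and 12.86 on Day 3, while the reference ran from 12.36 to 12.91 with a median of 12.57. The evening of Cow 2 thus lay within the reference range, and the other 3 raised libraries lay above that of their cow. The log2 difference was 0.69 (SE 0.18, limma adjusted p = 0.0205), or 1.61-fold, and it was 0.97 (adjusted p = 0.0215) with the scaling factor as a covariate. With the block the adjusted p was 0.0510, and the call was lost without either Day 3 library of Cow 1 or without the morning of Day 3 of Cow 2 (0.51 to 0.86 over all libraries left out).

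let-7c is a member of the let-7 family, and miR-3596 is a miRNA numbered in cattle whose gene overlaps that of let-7b, so that reads of miR-3596 and let-7b may not be separable. miR-3596 was 17.38 and 17.31 log2 CPM on Day 3 of Cow 1 (reference 16.57 to 16.99) and 17.26 and 17.15 in Cow 2 (reference 15.98 to 17.06). let-7c was 15.85 and 16.10 in Cow 1 (reference 15.12 to 15.80) and 16.38 and 16.32 in Cow 2 (reference 14.80 to 16.05). Both were above the reference of their cow in all 4 raised libraries. Their log2 differences were 0.63 (SE 0.17, limma adjusted p = 0.0256) and 0.70 (SE 0.21, adjusted p = 0.0345), and let-7b was at 0.52 (adjusted p = 0.058), while the most abundant miRNA, let-7a-5p, was at 0.03 (95% interval -0.45 to 0.51). With the scaling factor of the libraries as a covariate these shrank to 0.18 for miR-3596, 0.12 for let-7c and 0.04 for let-7b, and let-7a-5p came to -0.54. Quantile normalization left miR-3596 at 0.20 and let-7c at 0.30, and neither passed. Over the 9 members of the let-7 family 7 were positive in the fit with cow alone and 2 with the scaling factor as a covariate. The sign of most members thus turned with this covariate. The factor rests on the same reads, of which these 9 took 33.8% to 49.7% in raised and 37.0% to 48.8% in reference libraries. It is not independent of their level, so this fit cannot separate the 2.

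Among the rest, miR-92a, miR-92b and miR-25 share a seed, the stretch that pairs with targets, and all 3 were higher. The seed is also that of miR-32 and miR-363, which did not pass and differed in sign. miR-32 was at -0.61 (limma adjusted p = 0.0997) and miR-363 at 0.74 (adjusted p = 0.46). miR-92b was 7.09 and 7.45 log2 CPM on Day 3 of Cow 1 (reference 5.53 to 6.78) and 7.96 and 6.97 in Cow 2 (reference 6.45 to 6.94). It did not overlap in either cow (0.89, SE 0.26, limma adjusted p = 0.0351), and it rests on 92 reads in the raised and 152 in the reference libraries. miR-25 (0.51, adjusted p = 0.0401) and miR-92a (0.49, adjusted p = 0.048) overlapped with the reference in 1 cow and in both, respectively. With the block the adjusted p was 0.0783 for miR-92b, 0.0832 for miR-25 and 0.0937 for miR-92a. With the scaling factor as a covariate their log2 differences were 0.60, 0.41 and 0.52 in the same order, and none passed. miR-20a, which shares a gene cluster with miR-92a but not its seed, was at -0.63 (95% interval -1.37 to 0.11).

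The 2 other higher miRNAs, miR-8549 and miR-2890, are numbered in cattle and had their largest values in the morning of Day 3 of Cow 2. miR-8549 was 15.92 log2 CPM there, with 14.27 in the evening, against a reference of 12.48 to 14.17 in Cow 2. In Cow 1 it was 13.82 and 13.93 on Day 3, just above a reference of 12.77 to 13.63. The log2 difference of miR-8549 was 1.15 (SE 0.32, limma adjusted p = 0.0281), but 0.70 without the morning of Day 3 of Cow 2, and the call was then lost. miR-2890 had 30 and 14 reads on Day 3 of Cow 2 and 0 to 12 in its reference libraries, and 7 and 4 reads on Day 3 of Cow 1 against 2 to 9. Its fitted log2 difference was 1.61 (adjusted p = 0.0467), with 0 reads in 2 reference libraries, and 0.43 in Cow 1 alone against 2.66 in Cow 2. Neither miRNA passed with the block (0.0527 and 0.0783). The morning library of Day 3 of Cow 2 had the largest root mean square distance, 0.771 log2 units, from the other libraries of its cow among the 14.

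The types of cells in these milkings were not analysed here. None of the 6 members of the immune and inflammation list passed. Over all miRNAs 12.9% passed, so 0 of 6 is near the overall share and is no result about this list. The largest was miR-146b, a brake on inflammatory signalling, at 0.40 (95% interval -0.24 to 1.04, with 72 reads in the raised group). miR-155, which acts in activated lymphocytes and macrophages, was at 0.36 (-0.55 to 1.27; 35 reads), with 0.90 in Cow 1 and -0.12 in Cow 2. Its Day 3 levels were 6.65 and 6.78 log2 CPM in Cow 1, where the reference reached 6.46. In Cow 2, where the reference reached 5.81, they were 6.38 in the morning and 3.55, the level of 0 reads, in the evening. The value of Cow 2 thus rests on this evening library. miR-21-5p, induced in many inflamed tissues and by far the most abundant of the list, was at -0.17 (-0.43 to 0.09). An increase of more than 0.09 on the log2 scale thus lay outside its interval in the fit with cow alone. That fit treats the 2 milkings of a day as separate and does not cover the spread between animals. For the lymphoid miR-181a the value was 0.05 (-0.43 to 0.53), for miR-181b 0.08 (-0.49 to 0.65) and for miR-342 0.08 (-0.54 to 0.69). The median of the list was 0.08, and 5 of 6 members were positive. Its summed share of the reads was 2.33% to 3.59% in raised and 2.76% to 6.03% in reference libraries, a share set largely by miR-21-5p.

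The list of miRNAs linked to mastitis in bovine milk (miR-21-5p, miR-155, miR-378 and miR-185) likewise had no member past the threshold. With 4 members this too is near the share of 12.9% over all miRNAs. miR-378 was at 0.70 (95% interval -0.42 to 1.82; 34 reads in the raised group), and with the scaling factor as a covariate it was at 2.08 and passed (limma adjusted p = 0.0273). miR-185 was at -0.39 (-1.30 to 0.52; 18 reads). On so few reads the intervals of miR-155, miR-378 and miR-185 each spanned more than 1 log2 unit, and smaller changes of these miRNAs in either direction were hardly detectable at this depth.

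**Figure D3:**
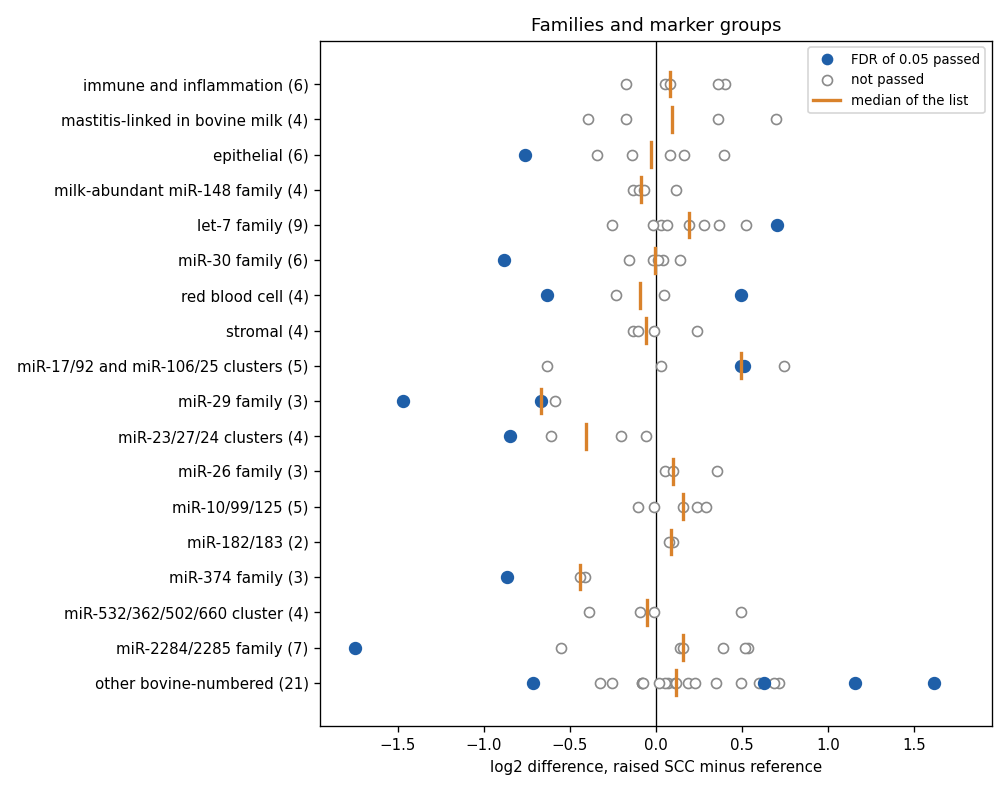
Log2 difference of raised minus reference libraries (horizontal axis) for the members of 18 families and marker groups, with the number of members in parentheses, filled where an FDR of 0.05 was passed; the orange line is the median of the list. The immune and inflammation list has 0 filled points of 6, near the share of 12.9% over all miRNAs. The medians lowest on the axis are those of the miR-29 family at -0.67, the miR-374 family at -0.44 and the miR-23/27/24 clusters at -0.41.

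The calls of the other lists are given as a description, beside the share of 12.9% over all miRNAs (6.06% higher, 6.82% lower). Their counts were not tested against these shares and are no result about the lists. The 4 members of the miR-23/27/24 clusters were all negative, with a median of -0.41. Only miR-24-3p passed, and miR-23a turned positive with equal library medians (0.01) and with the scaling factor as a covariate (0.10). miR-27a-3p was at -0.61 (adjusted p = 0.23) and miR-27b at -0.20. The miR-374 family had 1 lower call of 3, with miR-374c at -0.44. In the miR-30 family, 1 of 6 passed, and miR-30d was at 0.14. The clusters around miR-92a and miR-25 together had 2 higher calls of 5 and a median of 0.49. The red blood cell list had 1 higher and 1 lower call of 4 and a median of -0.09, with a share of reads of 1.40% to 1.98% in raised and 1.07% to 1.99% in reference libraries. The family of miR-2284 and miR-2285 had 1 lower call of 7 and 5 positive members (median 0.15), so that miR-2285bf went against most of its family. The other bovine-numbered miRNAs had 3 higher and 1 lower call of 21 (median 0.12) and took 19.0% to 28.9% of reads in raised and 12.8% to 21.2% in reference libraries, which includes the abundant miR-3596 and miR-2340, the latter at 0.71 (adjusted p = 0.058). The miR-148 family of milk had 0 calls of 4 (median -0.09), and miR-148a was at 0.39 in Cow 1 and -0.59 in Cow 2. The stromal list (0 of 4, median -0.06), the miR-26 family (0 of 3, 0.10), the list of miR-10b, miR-99 and miR-125 (0 of 5, 0.15), miR-182 and miR-183 (0 of 2, 0.09) and the cluster of miR-532, miR-362-5p, miR-502a and miR-660 (0 of 4, -0.05) had no call.

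Both cows were then set side by side. All 17 miRNAs that passed had the same sign in Cow 1 and Cow 2, as had 75 miRNAs of the whole table. The 17 were chosen by the effect fitted over both cows, which favours a shared sign, so this is no separate evidence. The raised libraries of Cow 1 stood apart from its reference for 42 miRNAs (31.8%) and those of Cow 2 for 23 (17.4%). In both cows and in the same direction this held for 8 miRNAs (6.06%), namely miR-3596, miR-8549, let-7c and miR-92b above and miR-2285bf, miR-3600, miR-29b and miR-16a below, and for 1 miRNA it held in opposite directions. With an effect for each cow in 1 fit, which shares the spread between both cows, 10 miRNAs passed in Cow 1 (7.58%) and 2 in Cow 2 (1.52%), and miR-2285bf passed in both. In the fit of Cow 1 alone miR-2285bf did not pass (adjusted p = 0.0721). In Cow 2 the other one was miR-2890. Cow 1 had miR-29b (-2.17), miR-30b-5p (-1.62), miR-24-3p (-1.20), miR-32 (-1.10), miR-29a (-1.10), miR-374a (-1.10), miR-141 (-1.001) and miR-16a (-0.83) below and miR-423-5p (0.59) above. Of the 9 lower miRNAs, 7 had the larger drop in Cow 1, but of all 17 only 8 had the larger change there. Over all miRNAs the median absolute log2 difference was 0.319 in Cow 1 and 0.318 in Cow 2. The difference between the 2 cows itself passed for 0 miRNAs in limma (0%; smallest adjusted p = 0.0518), with 19 at an unadjusted p below 0.05 (14.4%). For miR-29b that difference was -1.32 (95% interval -2.46 to -0.17, adjusted p = 0.291) and for miR-30b-5p -1.39 (-2.37 to -0.41, adjusted p = 0.184). Across all miRNAs, which are not independent and share the libraries of each cow, the differences of the 2 cows had a Pearson r of 0.298 and a Spearman rho of 0.234.

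**Figure D4:**
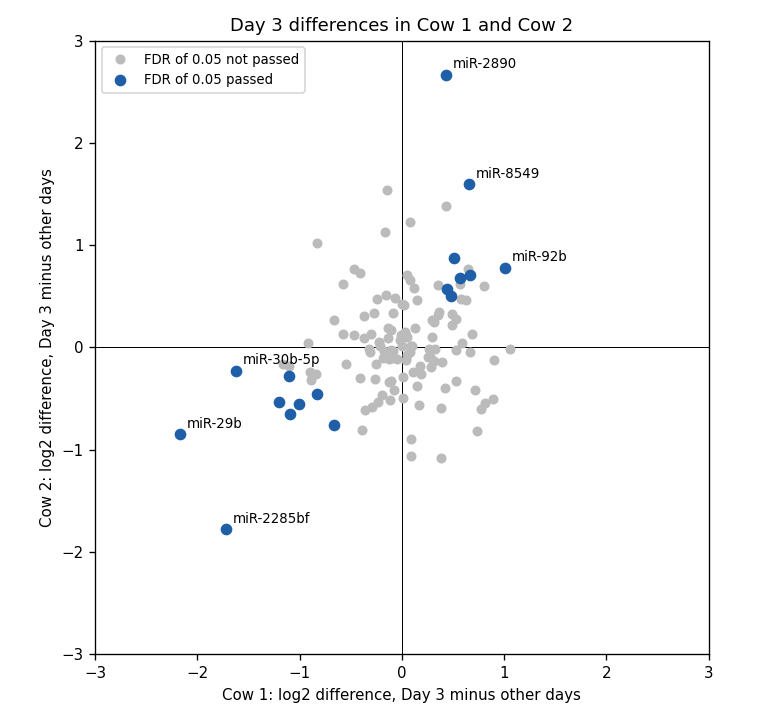
Log2 difference of Day 3 minus other days in Cow 1 (horizontal axis) and in Cow 2 (vertical axis) for all miRNAs, 1 point each, blue where an FDR of 0.05 was passed over both cows. Each blue point lies in the lower left or the upper right field, as do 75 points in all, and the choice of the blue points over both cows favours this. miR-2285bf has nearly equal values, miR-30b-5p lies further out in Cow 1 and miR-2890 in Cow 2.

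The level did not follow the SCC within Day 3 in a fixed way. Of the 17 miRNAs, 7 were further from the reference in the milking of 297’000 cells/mL than in that of 190’000 cells/mL in Cow 1, and 2 were further in the milking of 300’000 cells/mL than in that of 163’000 cells/mL in Cow 2. miR-2285bf was lower in the evening in both cows, which was the milking of lower SCC in Cow 1 and of higher SCC in Cow 2. With the SCC as a slope over all 14 libraries, 6 miRNAs passed: miR-2285bf (-0.69 per doubling of SCC), miR-374a, miR-320a, miR-141, miR-29b and miR-3600. All 6 are among the 17. Each raised SCC lay above each reference SCC, so this slope largely repeats the comparison of the groups and does not show a relation within Day 3.

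As a check of the day, Day 3 of Cow 4 was compared with its other days. In limma 0 miRNAs passed (0%; smallest adjusted p = 0.554), and p was below 0.05 without adjustment for 6 (4.55%), none of which was among the 17. miR-2285bf was 8.13 and 8.27 log2 CPM on Day 3 of Cow 4 and 7.78 to 8.64 (median 8.05) on the other days, a log2 difference of 0.06 (SE 0.31). miR-3600 was 11.20 and 11.005 against 10.17 to 11.05 (difference 0.45, SE 0.24), and miR-24-3p was 10.76 and 10.47 against 9.34 to 10.50 (0.64, SE 0.30). In Cow 4, 87 miRNAs of the whole table were positive, with a median of 0.15. Of the 9 lower miRNAs 7 were positive in Cow 4, and of the 8 higher ones 6 were positive, so that both lists were mostly positive there, as was the whole table. The largest of these was miR-8549 at 1.10 (SE 0.66), close to its value in Cow 1 and Cow 2, with 15.81 log2 CPM in the evening of Day 3. These are 2 libraries of 1 cow, and a p that misses the threshold does not show that the day had no effect.

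The difference between the Day 3 effect of Cow 1 and Cow 2 and that of Cow 4 was tested directly. It passed for 3 miRNAs (2.27%), all lower with the raised SCC: miR-2285bf by -1.81 (95% interval -2.74 to -0.89), miR-3600 by -1.16 (-1.72 to -0.60) and miR-24-3p by -1.51 (-2.29 to -0.73), each with a limma adjusted p of 0.0245. With the replicate block 0 passed (smallest adjusted p = 0.117). Without 1 library the count ran from 0 to 5. It was 0 without the evening of Day 3 of Cow 1 and without either Day 3 library of Cow 4, and 1 without the morning of Day 3 of Cow 2. It was 5 without the morning of Day 1 of Cow 4.

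Single values were also tested by exchanging the raised label within each cow. Over the 420 arrangements of libraries the exact two-sided p was below 0.05 for all 17, and 6 of them reached 0.00238, the smallest that the design allows, but after adjustment over all miRNAs the smallest exact p was 0.0524. With the 2 milkings of a day kept together 12 arrangements exist, the smallest exact p is 0.0833, and 15 of the 17 reached it, so that no miRNA could pass 0.05 in this form. Of all miRNAs 28 were below 0.05 by library and 28 reached the smallest p by cow and day. The 17 were chosen by the same contrast in the same libraries, and their exact p-values are no separate evidence.

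The number of calls depended on single libraries. It was 3 without the morning and 4 without the evening of Day 3 of Cow 1, 6 without the morning of Day 3 of Cow 2, 9 without the morning of Day 4 and 10 without the evening of Day 1 of Cow 1, and 11 without the evening of Day 1 of Cow 2. For the other 8 libraries it lay between 14 and 17. miR-2285bf, miR-3600 and miR-29b passed in all 14 of these fits, miR-141 and miR-374a in 12, and miR-320a, miR-16a, miR-24-3p and miR-3596 in 11. The calls of these 4 were lost without either Day 3 library of Cow 1 and without the morning of Day 3 of Cow 2, and those of miR-141 and miR-374a without either Day 3 library of Cow 1. miR-29a passed in 10 of the 14 and miR-8549 in 9, and both were lost without either Day 3 library of Cow 1, without its evening of Day 1 and without its morning of Day 4. The others passed in 3 to 8 of the 14 (adjusted p up to 0.269). The sign of all 17 was the same in every fit with a library left out. With 1 cow only, 1 miRNA passed without Cow 1 and 5 without Cow 2.

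**Figure D5:**
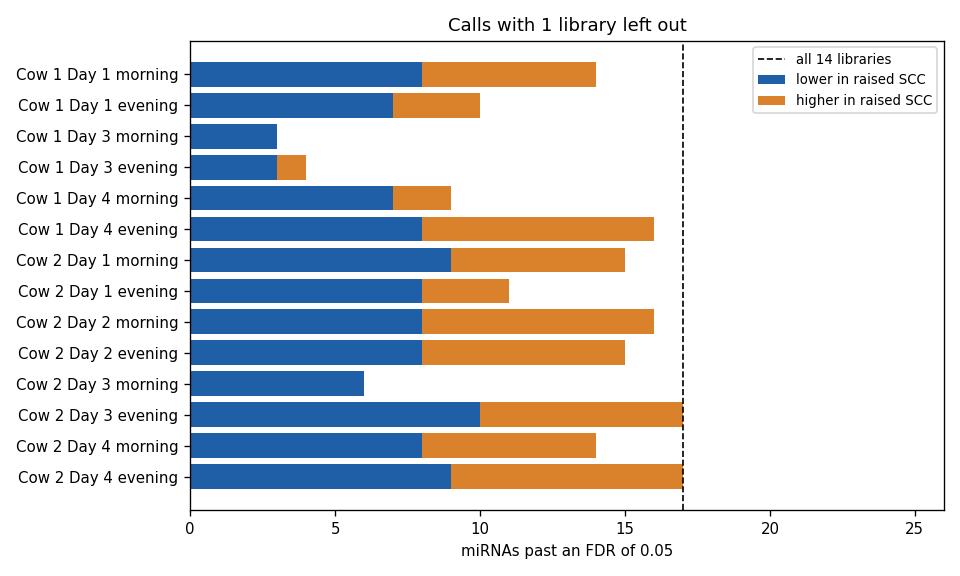
Number of miRNAs past an FDR of 0.05 (horizontal axis) when the library named on the vertical axis was left out, split by lower and higher in the raised group, with the count for all 14 libraries as a dashed line at 17. The shortest bars, of 3, 4 and 6 miRNAs, are those without the Day 3 libraries of Cow 1 and the morning of Day 3 of Cow 2.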

How the data were processed

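The authors trimmed the small RNA reads, removed duplicates, matched sequences to bovine mature miRNAs of miRBase, grouped isomiRs under the canonical form and deposited log2 CPM values made with edgeR from effective library sizes. A genome build is not given in the sources used here. Read counts were recovered from the log2 values with a prior count of 2; each of the 3696 values came within 0.01 of a whole number. A count of 0 stands at 3.55 log2 CPM, and 3 reads amounted to 9.87 to 32.4 CPM in the 14 libraries, limits that cover counting error only. Rows were matched to 132 miRNAs, of which 130 had a RefSeq gene in ARS-UCD2.0.

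The deposited log2 values were fitted with limma 3.58.1 (R 4.3.3) with a variance trend, two-sided, with Benjamini-Hochberg adjustment over 132 miRNAs. Library groups came from the SCC labels. Cow was a covariate. The fits were tested on simulated data. Morning and evening libraries of a cow and day come from the same animal and day, and the correlation within such pairs was 0.178, so that a replicate block of cow and day was fitted as an alternative. The text names, from a ranking by p, the first 10 that were higher and the first 10 that were lower, the 6 with the smallest p of each further comparison, the 10 most abundant, members of 4 lists, up to 3 members of each other list, and any miRNA that passed. Not all of these are printed, and values of further members of the gene clusters are given where a call is set beside them. The comparison, members and lists were chosen with earlier results of these data known. Alternatives covered scaling, variance, filter, added constant, session, read total, reference days, SCC as a slope, cows and libraries. A limma-voom fit to the recovered reads, the milking of higher SCC alone on each Day 3, the scaling factor and the top 10 share as covariates, and the ratios of neighbouring genes were added after the data were examined. Plots and counts used Python 3.11.15. Cow 3, with Days 1, 2 and 4, entered 1 alternative only.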

Additional observations from a re-analysis of the deposited data

Results flagged for a closer look

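Among 68 groups of 4 or 6 libraries of the 17 miRNAs, 5 had a library far from the rest, where chance gives about 1 in 20. miR-141 was lowest in the evening of Day 4 among the Cow 1 reference libraries, at 10.35 log2 CPM with the next value at 10.67. miR-29a was highest in the evening of Day 2 of the Cow 2 reference, at 10.99 with the next at 10.43. For miR-30b-5p the evening of Day 3 of Cow 2 was the highest of the raised libraries, at 8.66 with the next at 7.997. In Cow 4, miR-374a was highest in the morning of Day 1 (9.28, next 8.401) and miR-16a lowest in the evening of Day 2 (8.15, next 9.31).

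For 3 miRNAs the Day 3 effect with a raised SCC differed from that in Cow 4 in the test of the difference. The log2 differences were -1.81 for miR-2285bf, -1.16 for miR-3600 and -1.51 for miR-24-3p.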

How the results depend on the processing

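All 17 calls kept their sign in every alternative in which they were tested. The count of 17 became 8 without the variance trend, 3 with quantile normalization, 5 with the replicate block of cow and day, 1 with morning and evening averaged, 6 with the slope on log2 SCC, 1 without Cow 1, 5 without Cow 2, 1 with the milking of higher SCC alone on each Day 3, 6 with the scaling factor (4 of them among the 17) and 6 with the top 10 share as a covariate (5 among the 17), and 3 to 17 with a library left out; it stayed at 13 to 20 in the other alternatives. In Cow 1 the count of 10 became 3 with quantile normalization, 6 with the block and 0 to 19 with a library left out, and in Cow 2 the count of 2 became 0 with the block and 0 to 5. The difference from Cow 4 had 0 calls with quantile normalization and 0 with the block, and 0 to 5 with a library left out. The difference between the cows had 0 to 4. The causes were not tested.

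Among miRNAs that did not pass, log2 differences changed sign as follows. Without Cow 1, miR-155 was at -0.12, miR-342 at -0.14, let-7a-5p at -0.20 and miR-30d at -0.019; without Cow 2, miR-181a was at -0.27 and miR-148a at 0.39. Quantile normalization gave -0.078 for miR-200c, -0.21 for let-7a-5p, -0.10 for miR-30d and -0.19 for miR-423-5p, and equal medians 0.012 for miR-23a. With the scaling factor as a covariate let-7a-5p was at -0.54 and miR-23a at 0.10, and with the top 10 share at -0.35 and 0.040. The milking of higher SCC alone gave -0.39 for miR-155 and 0.051 for miR-23a, Days 1 and 4 as reference gave -0.014 for let-7a-5p, and the slope of miR-342 was -0.037. With a library left out the ranges were -0.054 to 1.05 for miR-155, -0.041 to 0.17 for miR-342, -0.15 to 0.26 for miR-181a, -0.24 to 0.38 for miR-181b, -0.35 to 0.034 for miR-148a, -0.19 to 0.39 for let-7a-5p and -0.11 to 0.0030 for miR-23a. Depth limits 4 of the calls, since miR-2285bf, miR-29b, miR-92b and miR-2890 had 46, 70, 92 and 55 reads in the 4 raised libraries together.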
